A study of Arabidopsis thaliana with 6 samples.

Results

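The leaf transcripts described here are those of Arabidopsis thaliana 1 h after a spray of Tween 20, set against those 1 h after a spray of distilled water. The comparison uses 4 of the 6 arrays of the series, picked by the treatment, time and experiment in their titles: the Tween 20 arrays of experiments IA and IB and the water arrays of the same experiments, each pair compared within its experiment. The plants were of ecotype Col-0, with no transgene or mutation named, were 28 days old, and were kept sterile in glass jars of 0.5 L, 33 plants to an experiment. The Tween 20 groups received the detergent at 0.2%, and the water groups received distilled water. Both groups share being sprayed, but may differ in the degree of wetting, which was not compared. No unsprayed leaves were analysed here. IA and IB were biological repetitions at 1 h. The remaining pair, experiment II, was collected at 2.5 h and is used below only for values side by side. Each array measured RNA of leaves pooled from 3 extracts, so each group at 1 h had n = 2. A treatment field in the sample labels names water for Tween 20 samples and 2.5 h for samples of IA. Titles and design text do not conflict with each other, and the grouping follows them.

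Tween 20 is a non-ionic detergent that serves as a wetting agent in leaf sprays. The leaf surface that it meets is sealed by the cuticle, a layer of cutin and waxes made by the epidermis, and detergents lower surface tension and can enter it. Leaf cells meet contact, wounding, microbes and foreign chemicals with an early set of transcripts, among them calcium-binding proteins, WRKY and ERF transcription factors, U-box ubiquitin ligases and receptor kinases. Glycosyltransferases and glutathione transferases attach sugars or glutathione to foreign compounds, and heat shock proteins hold damaged proteins in solution. For genes that are given by locus code alone, the roles stated below are general background on the family and do not come from the annotation used here.

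Signals are linear Affymetrix intensities. A signal was called dim when it lay under the 40th percentile of its array, which was between 20.6 and 23.9 over the 6 arrays. Of 44 marker genes of leaf and other cell types, 4 had a probe set with a single named gene. RCA, the activase of Rubisco and a mesophyll marker, had signals of 3823.3 (IA) and 3955.5 (IB) with Tween 20, against 3601.3 and 4176.4 with water. The guard cell markers were also above the dim level on all 4 arrays: GC1 had 784.6 and 538.4 with Tween 20, against 774.1 and 452.2 with water, and FMA had 72.4 and 34.7, against 70.5 and 37.1. PYK10, listed here as a root marker, had 980.8 and 745.2 with Tween 20, against 1016.5 and 1126.8 with water. Markers of epidermis, phloem, flower and meristem had no such probe set, so the epidermis was not checked. In leaves measured in bulk, fewer cells of a type and less RNA per cell cannot be told apart.

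After 1 h, genes with higher signals in the leaves sprayed with Tween 20 included CML42, PUB22, the lectin receptor kinase SD1-29 and 2 genes of the chitinase family. Genes with lower signals included UGT78D1, which glycosylates flavonols, the sugar transporter SWEET1 and the endoglucanase GH9B8. Among 13593 probe sets in which each pair had a signal that was not dim, 109 (0.802%) were at least 2-fold higher with Tween 20 in both pairs. Of these, 59 could be named by a single gene. A further 19 (0.14%) were at least 2-fold lower in both pairs, 10 of them with a single gene. The design text of the study gives 118 higher and 12 lower by a criterion of 2-fold in both experiments. These counts carry no test. In limma's test over the 2 pairs, none of 14345 probe sets (0%) passed an adjusted p of 0.05, the smallest adjusted p being 0.0673, while 931 higher and 760 lower probe sets had an unadjusted p under 0.05. After quantile normalization of the same arrays the limma count was 100 higher and 12 lower. The direction of each gene below is thus given as a difference between the arrays, not as a call.

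**Figure D1:**
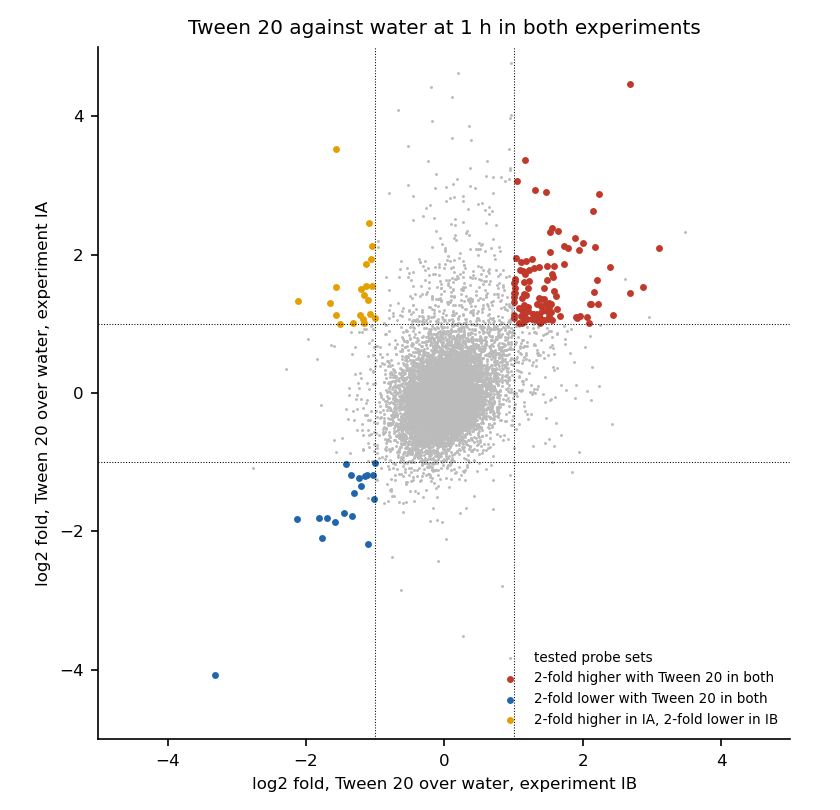
Log2 fold, Tween 20 over water, in experiment IA (vertical axis) and experiment IB (horizontal axis), each point a tested probe set and the dotted lines at 2-fold. Red points are the 109 probe sets 2-fold higher in both pairs, blue points the 19 that were 2-fold lower in both, and orange points the 21 that were 2-fold higher in IA and 2-fold lower in IB; IA spread wider than IB (SD of the log2 folds 0.51 and 0.38).

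Several of the higher genes belong to perception at the cell surface, and CML42 belongs to calcium signalling. Of 5 tested calcium-binding genes, CML42 alone was higher in both pairs, and 4 were split between the experiments. Over all tested probe sets these shares were 22.5% and 40.7%. CML42, a calmodulin-like calcium-binding protein, had signals of 275.3 (IA) and 188.9 (IB) with Tween 20, against 77.4 and 67.7 with water, a 3.15-fold difference (mean log2 fold 1.66 ± 0.17, SE of the fit, n = 2 pairs; limma adjusted p = 0.0673). SD1-29, the lectin receptor kinase also called LORE that senses bacterial 3-hydroxy fatty acids, had 200.5 and 140.2 with Tween 20, against 80.6 and 69.8 with water. AT1G61360, a receptor kinase of the S-locus lectin family, had 168.2 and 103.0 with Tween 20, against 58.8 and 44.4 with water. In all 3 genes the 2 Tween 20 signals lay above both water signals. This was so in 106 of the 109 probe sets 2-fold higher in both pairs, beside 11.2% of all tested probe sets. A choice by 2-fold in both pairs thus nearly fixes it, here and for such genes below. AT5G39020, a receptor kinase of the malectin type, had 105.9 and 97.1 with Tween 20, against 43.3 and 22.6 with water. AT5G03700, a mannose-binding lectin-like protein, was 3.26-fold higher, with 279.3 and 227.0 against 78.6 and 76.0. The 2 experiments gave similar values for this gene on both sides. Of the receptor-like kinases on the gene list, 8 were tested, 3 were higher in both pairs and 1 was lower in both, beside 22.5% and 36.8% of all tested probe sets. EFR, the receptor of the bacterial elongation factor Tu, was among the 3, with 43.6 and 31.0 against 24.2 and 23.9. FER, the receptor of RALF peptides, was not, with 389.4 and 373.6 against 360.5 and 425.8. THE1, which senses the state of the cell wall, was higher with Tween 20 in IA alone, at 186.2 and 103.6 against 174.7 and 125.1.

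Proteins of defence made up a second group. AT1G02360, of the chitinase family, was 4.17-fold higher, with 112.2 and 151.1 with Tween 20, against 41.4 and 23.5 with water. AT4G01700, of the same family, had 228.9 and 160.1, against 105.4 and 74.6. Both had Tween 20 signals above both water signals, as nearly all probe sets 2-fold higher in both pairs did. The secreted cysteine-rich proteins of the DUF26 kind were high already with water. AT3G22060 had 577.1 and 573.9 with Tween 20, against 181.2 and 192.7 with water, a 3.08-fold difference that was nearly the same in both pairs (log2 fold 1.67 for IA, 1.57 for IB). AT5G48540 had 1157.1 and 557.5, against 328.5 and 215.8. AT2G38870, of the PR-6 family of proteinase inhibitors, had 1906.5 and 1913.2, against 662.9 and 946.2. AT1G65690 and AT2G46150, of the NDR1/HIN1-like family, were 2.89-fold and 2.90-fold higher. The list meant for pathogenesis-related hydrolases and defensins was gathered by symbol. It held no member higher in both pairs among 10 tested, and 5 were lower in both, beside 22.5% and 36.8% of all tested probe sets. Among the 5 were PDF1A and PDF1B, peptide deformylases that share a symbol with the defensins, so the count is not one of defence genes alone. PDF1.2, a defensin responsive to ethylene and jasmonate, had 111.9 and 1806.1 with Tween 20, against 217.2 and 2127.4 with water. It was lower with Tween 20 within each experiment, and the experiments themselves stood far apart.

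Regulators of signalling and protein turnover were also represented. PUB22, a U-box ubiquitin ligase that damps immune signalling, had 159.2 and 117.1 with Tween 20, against 65.7 and 42.9 with water. AT3G09830, a receptor-like cytoplasmic kinase of the immune pathway, had 216.1 and 205.3, against 98.3 and 84.7. The transcription factor genes AT1G22810 and AT1G64380 are of the ERF family. AT1G22810 had 163.0 and 54.4 with Tween 20, while both water signals, 21.8 and 19.7, were dim, so no fold is given. AT1G64380 was 2.83-fold higher, with 94.5 and 94.4 against 27.6 and 40.5. GH3.3, which joins auxin to amino acids, had 84.1 and 60.2 with Tween 20, against 21.8 and 29.3 with water, the water signal of IA being dim. PRN, the pirin that works with the G protein alpha subunit, had 87.7 and 55.9, against 23.5 and 25.9. SEC1B, which acts in vesicle fusion, had 61.6 and 33.7, against 26.9 and 15.5, the water signal of IB being dim. For this set of regulators the Tween 20 signals of both experiments exceeded both water signals. The set was picked as 2-fold higher in both pairs, which nearly fixes this: it held for 106 of all 109 such probe sets.

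Enzymes of lipids and small molecules formed a further group. AT5G47330 and AT5G41900, of the alpha/beta hydrolase family, were 3.92-fold and 3.37-fold higher, with 326.4 and 275.9 against 62.6 and 93.7 for AT5G47330. AT5G12420, related to the wax ester synthase WSD1, had 81.9 and 106.2 with Tween 20, against 26.3 and 23.1 with water. WSD1 itself had 62.8 and 49.6 with Tween 20, against 109.1 and 24.6 with water, lower in IA and higher in IB. AT4G20830, a berberine bridge enzyme-like oxidase, had 785.3 and 798.1 with Tween 20, against 344.6 and 346.0 with water. Its log2 folds of 1.19 and 1.21 were among those that differed least between experiments.

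The large differences also included genes whose role is not stated here. AT5G12050 had 197.8 and 143.1 with Tween 20, against 47.4 and 37.1 with water, a 4.01-fold difference (mean log2 fold 2.00 ± 0.15, SE of the fit, n = 2 pairs; limma adjusted p = 0.0673). AT3G50900 had 232.3 and 207.7, against 53.5 and 62.9. AT1G49000 had 105.1 and 152.1 against 24.5 and 17.7, the water signal of IB being dim. In each of these genes both Tween 20 signals lay above both water signals, which their choice as 2-fold higher in both pairs nearly fixes. AT1G19020 had 1509.9 and 335.9 with Tween 20, against 145.6 and 149.6 with water. AT1G53540, a small heat shock protein of the HSP17.6 class, had 1646.4 and 102.9, against 197.7 and 49.8. In these 2 genes the excess in IA was far above that in IB, and for AT1G53540 the Tween 20 signal of IB lay under the water signal of IA.

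**Figure D2:**
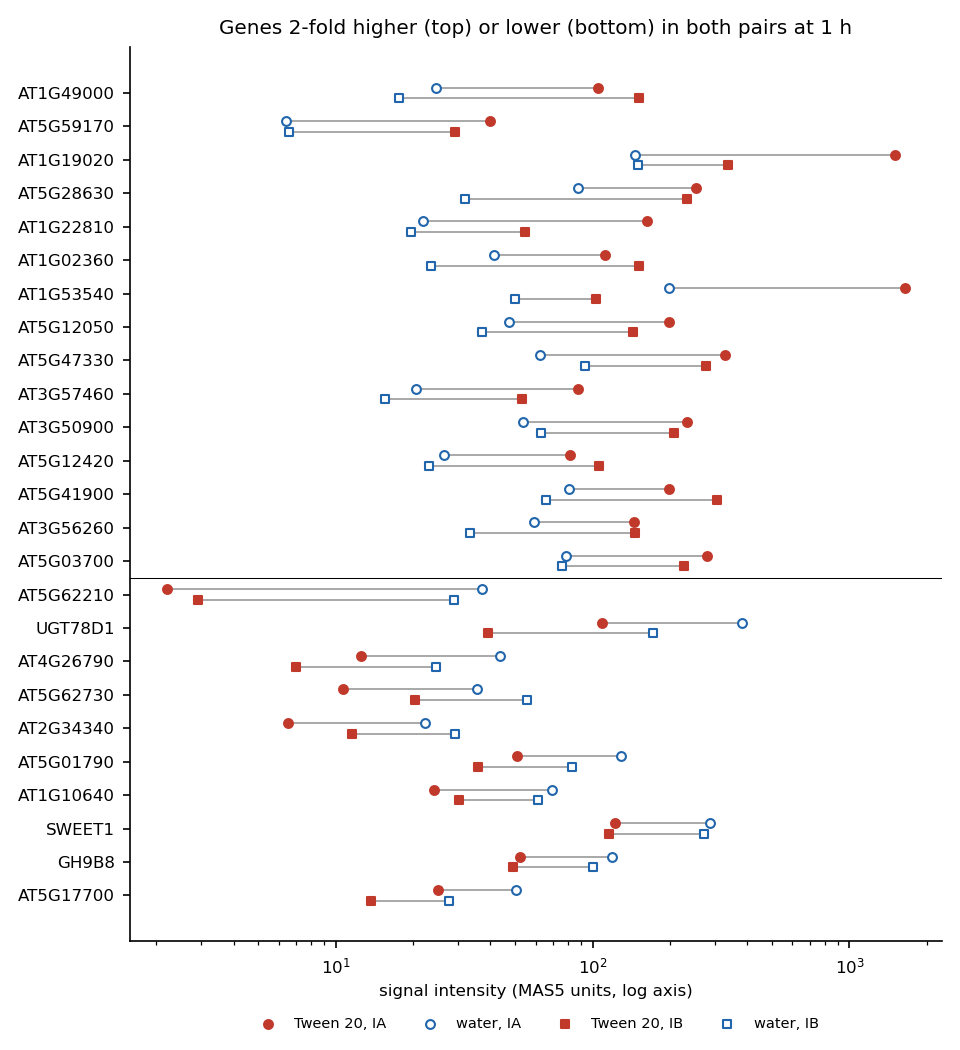
Signals on a log axis of the named genes that differed by 2-fold or more in both pairs and had the largest mean log2 folds, 15 higher above the line and 10 lower under it, with Tween 20 (filled) and water (open) of IA (circles) and IB (squares) as separate points. AT1G19020 and AT1G53540 show Tween 20 points of IA far above those of IB, and SWEET1 and GH9B8 nearly equal points in both experiments.

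Among the lower genes, enzymes that decorate flavonols stood beside transporters and wall enzymes. UGT78D1, which attaches rhamnose to the 3-position of flavonols, had signals of 108.7 (IA) and 39.2 (IB) with Tween 20, against 382.2 and 171.2 with water, 3.92-fold lower (mean log2 fold -1.97 ± 0.16, SE of the fit, n = 2 pairs; limma adjusted p = 0.0673). AT1G06000, which attaches rhamnose to the 7-position, had 221.8 and 111.5, against 382.0 and 237.7. CHIL, a chalcone isomerase-like protein of flavonoid synthesis, had 106.8 and 71.8, against 278.9 and 123.2. All 3 were lower with Tween 20 within both experiments, and all had lower water signals in IB than in IA. The phenylpropanoid and flavonoid list as a whole did not move one way: of 13 tested members, 3 were lower in both pairs and 5 were higher in both, beside 36.8% and 22.5% of all tested probe sets.

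SWEET1, a transporter of glucose, had 122.3 and 115.9 with Tween 20, against 285.7 and 272.1 with water, 2.34-fold lower. The log2 fold was -1.22 in the pair of IA and -1.23 in that of IB. Of 14 tested sugar transporters, 9 were lower in both pairs and 1 was higher in both, beside 36.8% and 22.5% of all tested probe sets. In 6 of the 14 both Tween 20 signals lay below both water signals, beside 15.1% of all tested probe sets. SWEET17 and SFP2 were lower in both pairs, SFP2 with 28.4 and 48.3 against 54.8 and 87.3. SWEET11, which exports sucrose to the phloem, had 750.5 and 522.4 with Tween 20, against 803.7 and 520.1 with water. The median log2 fold of the list was -0.11 in IA and -0.23 in IB, against -0.08 and -0.03 over all tested probe sets.

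GH9B8, an endoglucanase of the cellulase family, had 52.1 and 48.9 with Tween 20, against 118.7 and 100.1 with water, 2.16-fold lower. Of 6 tested endoglucanases, 4 were lower in both pairs and none was higher in both, beside 36.8% and 22.5% of all tested probe sets (medians -0.54 in IA and -0.61 in IB). AT1G10640, of the polygalacturonases that cut pectin, was 2.42-fold lower, with 24.1 and 30.3 against 69.4 and 61.4. AT1G23205, of the pectin methylesterase inhibitor family, had 72.0 and 84.5, against 171.3 and 166.2. AT5G21100, an ascorbate oxidase of the cell wall, had 154.9 and 187.6, against 329.9 and 326.9. Another pectin methylesterase inhibitor gene, AT3G47380, went the other way, with 58.2 and 77.3 with Tween 20, against 26.8 and 24.2 with water. Of 16 tested xyloglucan, expansin and extensin genes, 7 were lower in both pairs and none was higher in both, the 7 being near the 36.8% of all tested probe sets. AT5G59170, an extensin-like gene that the list did not hold, had 39.8 and 29.1 with Tween 20, while both water signals, 6.4 and 6.6, were dim.

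The GDSL lipase family, whose members include enzymes that act on cutin and other lipids, held differences in both directions. AT1G29670 had 2759.2 and 2218.9 with Tween 20, against 1355.5 and 1173.4 with water. AT1G29660, the next gene on chromosome 1 in the RefSeq table, had 467.5 and 491.3, against 933.7 and 978.7. The 2 neighbours differed by nearly the same size in opposite directions, 1.96-fold higher and 1.99-fold lower, and each did so in both experiments. AT4G26790, of the same family, was lower, with 12.5 and 7.0 with Tween 20, both dim, against 43.7 and 24.5 with water. Of 5 tested genes of wax and cutin synthesis, 3 were lower in both pairs and none was higher in both, too few genes to set apart from the 36.8% and 22.5% of all tested probe sets. FATB, the thioesterase that releases saturated fatty acids, had 214.5 and 333.4, against 272.8 and 432.6.

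Further gene lists are set beside all tested probe sets, of which 22.5% were higher and 36.8% lower in both pairs. Jasmonate genes had none of 6 higher in both pairs and AP2/ERF factors none of 5. In each of these 2 small lists 2 were lower in both, near the share of all tested probe sets. The AP2/ERF list, gathered by symbol, did not hold the ERF genes AT1G22810 and AT1G64380, which were higher in both pairs. The bHLH factors had 1 higher and 7 lower of 14. WRKY factors were mostly higher with Tween 20. Of 5 tested, 4 were higher in both pairs, and in these 4 both Tween 20 signals lay above both water signals, beside 22.5% and 11.2% of all tested probe sets. WRKY6 had 163.6 (IA) and 68.1 (IB) with Tween 20, against 41.2 and 41.4 with water. WRKY22, a factor of the immune MAP kinase pathway, had 188.1 and 101.4, against 61.1 and 66.7. WRKY53, a regulator of leaf senescence, had 92.1 and 101.7, against 67.7 and 58.0. WRKY47 had 128.0 and 188.0, against 96.2 and 101.8, while WRKY20 was slightly lower in both pairs. The median log2 fold of the 5 was 0.44 in IA and 0.72 in IB.

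Heat shock proteins and their partners differed more in IA than in IB. Of 10 tested members, 7 were higher in both pairs and none was lower in both, beside 22.5% and 36.8% of all tested probe sets, and the median was 0.75 in IA and 0.18 in IB. Hop3, a cochaperone that links HSP70 and HSP90, had 670.5 and 280.1 with Tween 20, against 386.8 and 212.8 with water. Fes1A, an HSP70 partner, had 1290.2 and 563.9, against 607.0 and 403.9. In these genes the Tween 20 signal of IB lay under the water signal of IA. In none of the 10 did both Tween 20 signals exceed both water signals, beside 11.2% of all tested probe sets. The 10 genes are too few to set apart from that share. ATHSP22.0, a small heat shock protein, had 198.6 in IA and 15.1 in IB with Tween 20, against 24.6 and 21.7 with water. Its Tween 20 signal of IB was dim. BZIP60 and the chaperones of the unfolded protein response formed a similar list, in which 6 of 15 tested members were higher and 1 was lower in both pairs, beside the same shares, and the medians were 0.30 and 0.06.

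**Figure D3:**
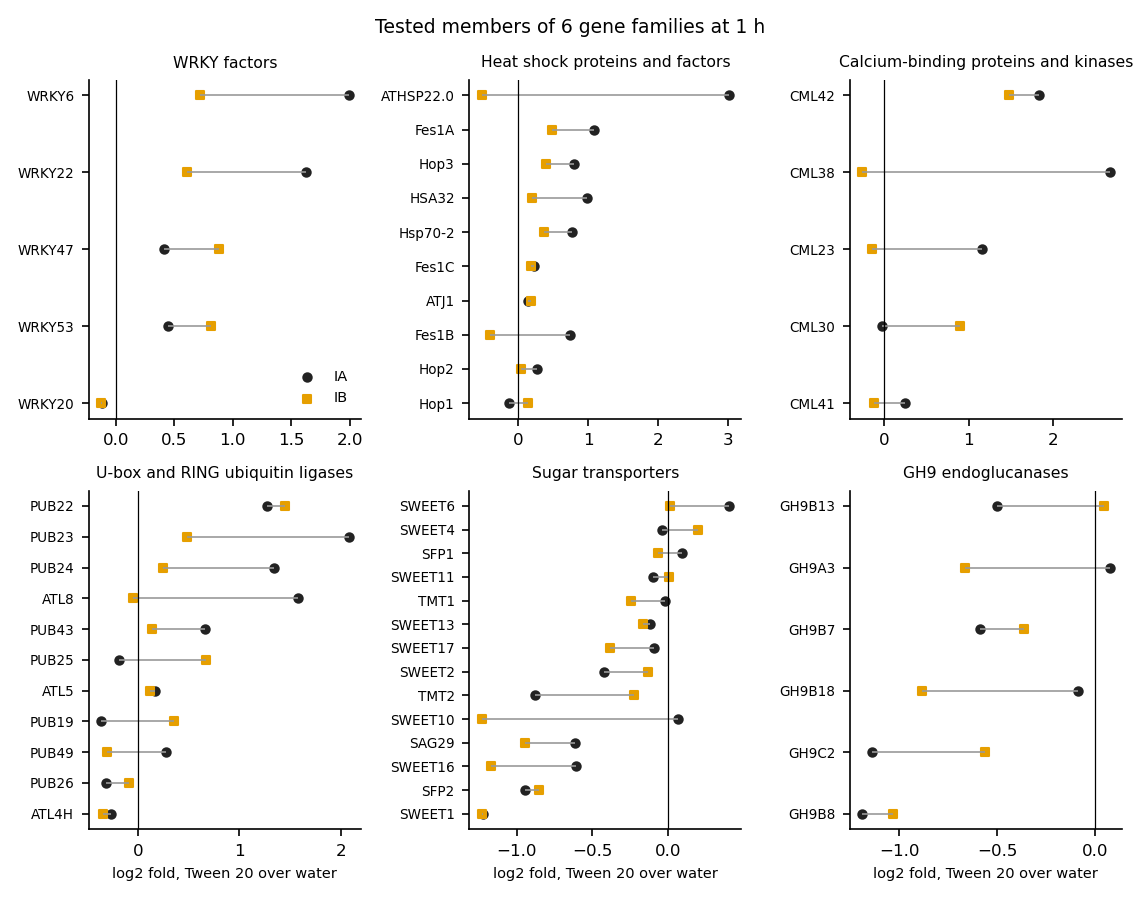
Log2 fold, Tween 20 over water, of the tested members of 6 gene families, with IA (circles) and IB (squares) joined by a line. WRKY factors lie above 0 in both pairs except WRKY20, heat shock proteins spread upward in IA, and endoglucanases and sugar transporters lie mostly at or below 0.

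**Figure D4:**
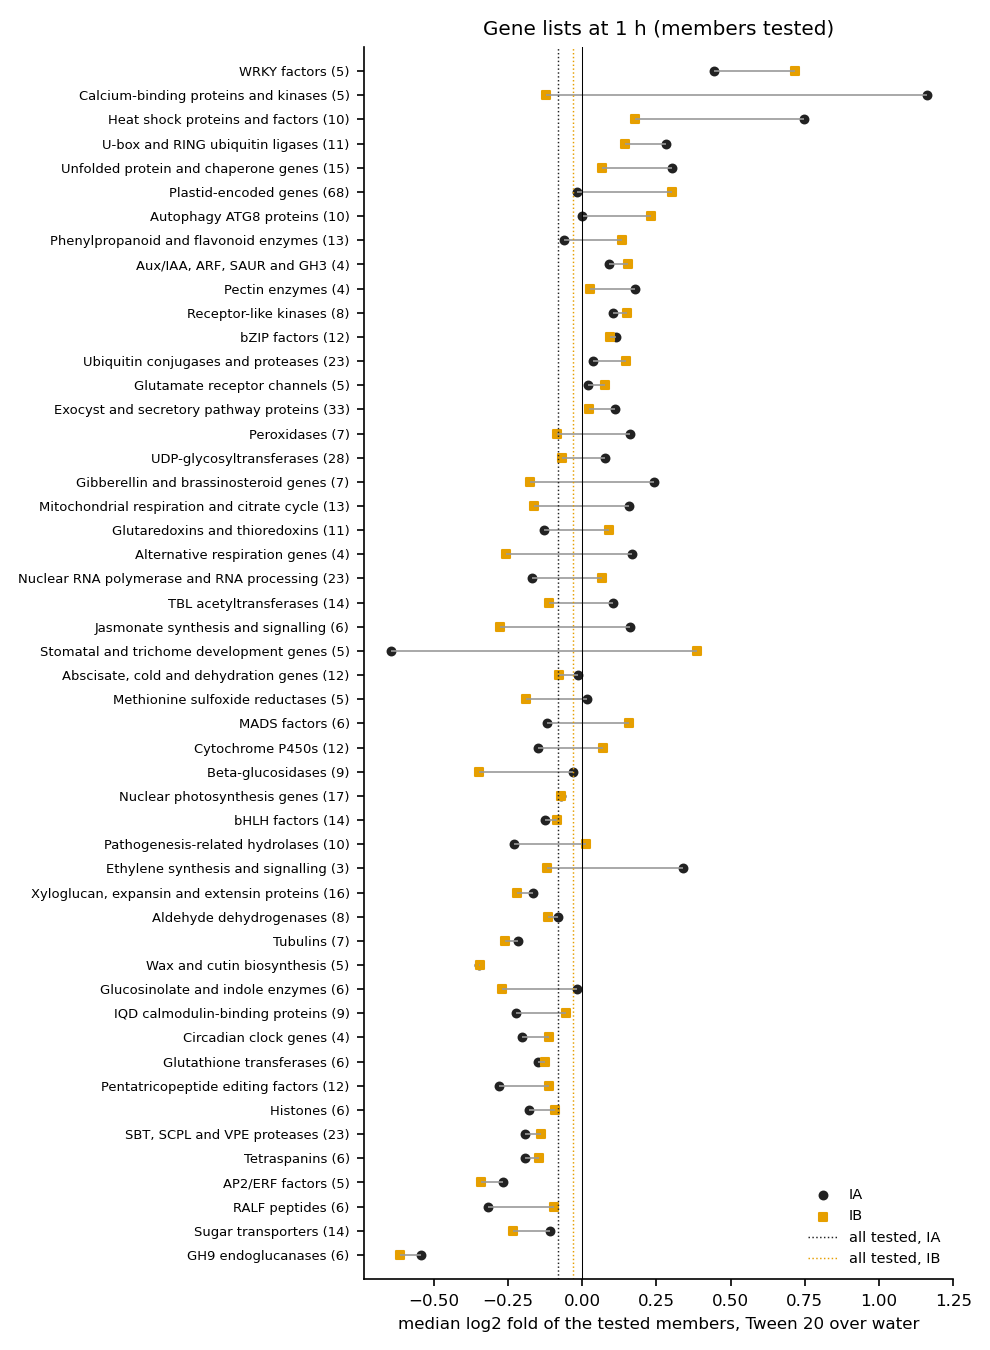
Median log2 fold of the gene lists with 3 or more tested members, in IA and in IB, with dotted lines at the medians of all tested probe sets (-0.08 in IA and -0.03 in IB). Of 50 lists, 12 had a median above 0 in both pairs and 20 a median below 0 in both.

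The 2 experiments shared a part of their differences. The 109 made up 20.8% of the 523 probe sets that reached 2-fold in IA and 45.2% of the 241 that reached it in IB. Over all tested probe sets with a signal that was not dim in the pair, 541 (3.87%) were 2-fold higher in IA and 244 (1.75%) in IB. Folds above 0 were shared more widely than 2-fold differences: 71.5% of those 2-fold higher in IA were above 0 in IB, and 90.0% of those 2-fold higher in IB were above 0 in IA. For lower signals the sharing was uneven: 85.3% of those 2-fold lower in IA were below 0 in IB, while 50.0% of those 2-fold lower in IB were below 0 in IA, where their median log2 fold was 0.02. Of 136 probe sets 2-fold lower in IA and 96 in IB, the same 19 were shared. With all 4 signals above the dim level, the shares below 0 were 86.9% and 53.6%. The median in IA of those 2-fold lower in IB was then -0.17. Across the 13593 probe sets, which share arrays and are not independent, Pearson's r between the folds was 0.35 and Spearman's rho was 0.29. Among the 109, the fold was larger in IA for 56 and in IB for 53, and the 2 folds had an SD under 0.25 in 55, beside 64.0% of all tested probe sets.

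In some named genes with a larger fold in IA, 1 array stood apart. AT4G39670, a glycolipid transfer-like protein, had 437.1 in IA and 28.2 in IB with Tween 20, against 42.9 and 33.1 with water. STZ, a zinc finger factor of cold, salt and oxidative stress, had 431.0 and 81.1, against 73.0 and 100.3. AT1G21550, an EF-hand protein, had 339.6 and 21.0, against 43.1 and 20.7. In each of these the Tween 20 array of IA stood alone above the other 3. Some lists were split between the experiments too. Of 5 tested calcium-binding genes, 1 was higher in both pairs and 4 were split, beside 22.5% and 40.7% of all tested probe sets. In this small list 3 were 2-fold higher in IA and 1 in IB, beside 3.87% and 1.75% of all tested probe sets. The list medians were 1.16 in IA and -0.12 in IB. CML38, a calmodulin-like protein, had 85.8 and 23.5 with Tween 20, against 13.5 and 28.2 with water. Its water signal of IA was dim, as was that of CML23. Of 28 tested UDP-glycosyltransferases, 6 were 2-fold higher in IA and none in IB, counting pairs with a signal that was not dim, beside 3.87% and 1.75% of all tested probe sets. UGT73B5, which acts on foreign and defence compounds, had 221.3 and 49.5, against 21.6 and 32.2. UGT73B4, its close relative, had 83.2 and 23.1, against 12.2 and 19.1. The water signal of IA was dim for UGT73B5, and both water signals were dim for UGT73B4. Within the U-box and RING ligases, 4 of 11 tested were 2-fold higher in IA and 1 in IB, beside the same 3.87% and 1.75%. PUB23, a close relative of PUB22, had 208.5 and 52.2, against 49.4 and 37.4, and PUB24 had 82.4 and 43.0, against 32.5 and 36.3. At any size, 10 of the 28 UDP-glycosyltransferases were higher and 9 lower in both pairs, beside 22.5% and 36.8% of all tested probe sets. Of 6 tested glutathione transferases, none was higher and 5 were lower in both pairs, beside the same shares. No difference between the families was tested.

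A smaller number of genes pointed in opposite directions in the 2 experiments. There were 21 probe sets 2-fold higher in IA and 2-fold lower in IB, and none the other way round. A signal of 1 of the 4 arrays or more was dim in 9 of the 21, and 6 had a single gene. AT5G05600, a jasmonate oxidase, had 330.5 in IA and 175.3 in IB with Tween 20, against 113.2 and 382.7 with water. AT2G38240, a related jasmonate oxidase, had 111.6 and 62.4, against 41.7 and 140.1. OPCL1, an enzyme of jasmonate synthesis, followed the same pattern at smaller size, with 289.7 and 197.5, against 133.0 and 307.9. In all 3 the water array of IB was above the water array of IA, and the Tween 20 array of IB was below that of IA. Of 6 tested jasmonate genes, 4 were split between the experiments, beside 40.7% of all tested probe sets, and the medians were 0.16 in IA and -0.28 in IB. The median difference of the water arrays for this list was 0.41 on the log2 scale, IB over IA.

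Chloroplast-encoded transcripts separated the experiments in the other direction. psbD, for the D2 protein of photosystem II, had 938.3 in IA and 428.4 in IB with Tween 20, against 1003.6 and 98.3 with water. psbB, for the core antenna protein CP47, had 377.0 and 74.0, against 412.1 and 27.1. matK, for the intron maturase, had 1367.9 and 805.7, against 1379.9 and 299.0. In each of these the folds in IA were close to 0, and the water array of IB was the lowest of the 4. Over 68 tested chloroplast-encoded probe sets, the median log2 fold was -0.02 in IA and 0.30 in IB. Of the 68, 6 were 2-fold higher in IB and none in IA, beside 1.75% and 3.87% of all tested probe sets. The water signals of the 68 were lower in IB than in IA by a median log2 of -1.15, in 60 of 68. Their Tween 20 signals were lower by -0.61, in 58 of 68. Over all tested probe sets the median difference of the water arrays was -0.07. AT3G22240, a nuclear gene, also had its lowest signal on the water array of IB, with 1142.8 and 1567.2 with Tween 20, against 1549.1 and 511.7 with water. The nuclear photosynthesis genes did not share it: their median was -0.07 in both pairs, and 8 of 17 tested were lower in both, beside 36.8% of all tested probe sets.

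**Figure D5:**
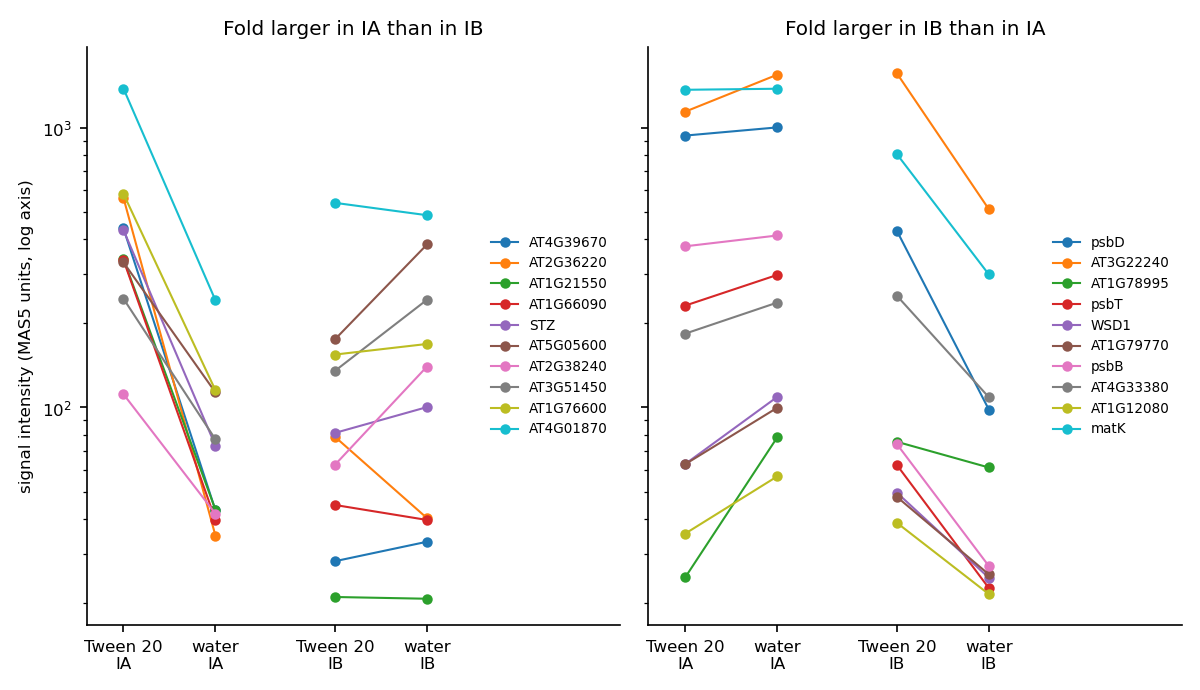
Signals on a log axis of named genes whose log2 fold was larger in IA (left panel) or in IB (right panel), with lines joining Tween 20 to water within an experiment. In AT4G39670 and STZ the Tween 20 point of IA stands above the other 3, and in psbD and psbB the water point of IB stands below the other 3.

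The arrays differed more by experiment than by treatment. The correlation of log2 signals over tested probe sets was 0.95 between Tween 20 and water in IA and 0.97 in IB, and 0.93 between the Tween 20 arrays and 0.92 between the water arrays of the 2 experiments. Their median signals were between 36.5 and 38.65. The log2 ratio of 3' over 5' actin control probe sets was 2.78 with Tween 20 and 2.66 with water in IA, and 1.76 and 1.84 in IB. The actin ratio thus differed between the experiments and little between the treatments. For ubiquitin the ratio was 0.82 and 0.70 in IA, and 0.62 and 0.64 in IB. For GAPDH it was 0.23 and 0.30 in IA, and 0.13 and -0.025 in IB. These 2 controls differed less between the experiments than actin did. The part of the ratios in the differences between IA and IB was not tested. Among the dimmest of 4 equal classes of probe sets by mean signal, the SD of the difference between the IA and IB folds was 0.63, and among the brightest it was 0.46.

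At 2.5 h, in the single pair of experiment II, most of these differences had the same direction. The probe sets were chosen for a 2-fold difference at 1 h, so a smaller median in a pair not used for the choice is no measure of a change with time. Of the 109 higher probe sets, 101 were above 0, with a median log2 fold of 0.75 against 1.38 in IA and 1.39 in IB. Of the 19 lower ones, 17 were below 0, with a median of -0.48 against -1.53 and -1.33. Over all tested probe sets the median in experiment II was -0.015. CML42 had 92.4 with Tween 20, against 59.9 with water, and PUB22 had a log2 fold of 1.56. SWEET1 had 259.7 with Tween 20, against 237.6 with water, and UGT78D1 had 202.3, against 262.3. One pair has no replicate, the time and the experiment cannot be told apart, and no difference between 1 h and 2.5 h was tested.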

How the data were processed

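Leaf RNA pooled from 3 extracts was hybridised to each of 6 Affymetrix arrays, of which the 4 collected at 1 h are compared. The authors deposited linear signal intensities for 22810 probe sets. The submitters' processing notes name MAS5, but its version and settings are not stated in labels or file headers. The 4 signals compared per probe set were taken as deposited, those of 0 were set to 0.1, and log2 values were fitted with limma 3.58.1 (R 4.3.3), the experiment as a block. The prior variance followed mean intensity, and p-values were adjusted by Benjamini-Hochberg over the 14345 probe sets that were at or above the 40th percentile on 2 or more of the 6 arrays. Control probe sets (64) were left out. Genes came from the platform annotation, updated through RefSeq (TAIR10.1): 13513 probe sets had 1 gene, 503 several and 8730 none, and 13436 matched.

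Tween 20 and water arrays of the same experiment deviated together (correlation 0.65), and the design text pairs them. With 2 pairs, the number of arrays limits the precision. The p-values and SE of the fit combine the spread between these pairs with the variance of other probe sets of like intensity. That spread had 1 residual degree of freedom, and the prior from the other probe sets had 4.7. They speak for these experiments alone. Genes were named by rule: the 15 highest and 10 lowest of those 2-fold in both pairs, the 10 highest and 10 lowest by moderated t, the 10 that differed most between IA and IB in each direction, and 4 members of each of 50 gene lists. Other named genes were chosen after their values were seen, for a known family. Members and lists were chosen with earlier results of these data known. Normalizations, offset, filters, variance model, block, threshold and left-out experiments were varied. No sequence is shown.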

Additional observations from a re-analysis of the deposited data

Results flagged for a closer look

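AT5G59170, the extensin-like gene, had both pairs at 1 h higher with Tween 20 and the pair at 2.5 h lower. Its signals at 1 h were 39.8 (IA) and 29.1 (IB) with Tween 20, against 6.4 and 6.6 with water. Both water signals were dim, so the size of the difference at 1 h was not measured. At 2.5 h the signals were 26.5 with Tween 20, against 41.3 with water, a log2 fold of -0.64, and the difference between the times was not tested. Among 241 named genes, 47 had both 1 h pairs on one side of 0 and the 2.5 h pair on the other, and in 1 of them every pair was past 0.5 on the log2 scale.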

How the results depend on the processing

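The limma count depended on the normalization and the filter: 0 higher and 0 lower as deposited, 100 and 12 after quantile normalization, 6 and 2 after median centring, and 7 and 2 with a filter at the 60th percentile. With no replicate block the count was 0 higher and 0 lower, with 389 higher and 104 lower at an unadjusted p under 0.05, and it also stayed at 0 with a pseudocount of 16, with no filter, with the filter on 2 of the 4 arrays, without the trend and with all 6 arrays. Of the 112 called after quantile normalization, 95 were 2-fold in both pairs. The 109 probe sets 2-fold higher in both pairs became 58 with the pseudocount, 373 with no filter and 368 at 1.5-fold, and 260 to 587 when 1 experiment alone was used. The 19 lower became 8, 279 and 132 under the same changes, 12 with the 60th percentile filter, 12 with both signals of each pair above the dim level, and 116 to 163 with 1 experiment alone. The 21 in opposite directions became 12 with both signals of each pair above the dim level. Quantile normalization gave 108 higher and 19 lower, and median centring 116 and 17. No named gene of 241 changed sign under either normalization or the pseudocount, while 28 did without IA and 16 without IB. The medians of 5 of 46 gene lists changed sign with the 60th percentile filter and of 5 of 50 with no filter, among them the receptor-like kinases in both cases; 11 did so without IA, the calcium-binding genes, UDP-glycosyltransferases and pathogenesis-related hydrolases among them, and 7 without IB, the jasmonate and chloroplast-encoded genes among them. The cause of these shifts was not tested.

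Limma has no residual degrees of freedom with 1 pair, so leaving out an experiment gives values with no test. A planned count of promoter motifs was not run, since no promoter sequences were used here. Many probe sets have no single gene here, so the families described are those with named members, and probes shared by near-identical family members were not checked. The depth of an array is its signal over background: dim signals carry folds that the arrays do not measure well, and no detection calls were used.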

Other observations

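Other gene families are given beside all tested probe sets, of which 22.5% were higher and 36.8% lower in both pairs. Of 23 tested subtilase, serine carboxypeptidase-like and vacuolar processing protease genes, 14 were lower with Tween 20 in both pairs and 3 were higher in both, with medians of -0.19 in IA and -0.14 in IB. Of 33 tested genes of the exocyst and secretory pathway, 13 were higher in both pairs and 8 were lower in both, and in 11 both Tween 20 signals lay above both water signals, beside 11.2% of all tested probe sets. Of 23 tested ubiquitin-conjugating enzymes and proteases, 9 were higher in both and 3 were lower in both. Tubulins had 4 of 7 lower in both pairs and none higher in both, with medians of -0.22 and -0.26. Over all tested probe sets the medians were -0.08 and -0.03.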
